A study of Rattus norvegicus with 138 samples.

Results

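The 10 genes described here encode the TGF-β ligands (Tgfb1, Tgfb2 and Tgfb3), the type I and type II TGF-β receptors (Tgfbr1 and Tgfbr2), the TGF-β-induced matrix protein (Tgfbi) and the latent TGF-β binding proteins (Ltbp1, Ltbp2, Ltbp3 and Ltbp4). They were chosen by gene symbol, and all 10 were found among the 16181 symbols with a deposited TPM level, the number of transcripts of a gene scaled to a fixed total per library and corrected for gene length. RNA came from the whole tibialis anterior (TA) muscle of adult male inbred Lewis rats. Volumetric muscle loss (VML), the removal of more muscle than the tissue can replace, was produced in the left TA with a 6 mm biopsy punch. The defect was left without repair or received a minced muscle graft (MMG), the excised tissue cut into small pieces. Muscles were taken 3, 7, 14 and 28 days post injury.

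Injured muscle without repair or running came from 3, 8, 4 and 4 rats at 3, 7, 14 and 28 days, and contralateral muscle, the opposite TA of such rats, from 2, 4, 2 and 2. In grafted rats without running the numbers were 7, 8, 4 and 4 injured and 2, 6, 2 and 2 contralateral muscles. Rats labelled as running gave 8, 4, 4 and 2 injured muscles without repair and 6, 4, 4 and 2 with a graft, besides 2 contralateral muscles per arm at 3, 7 and 14 days. What the running consisted of is not given in the sources used here. Control muscle (n = 4) was the TA of both legs of 2 rats, labelled Sham at day 0, while the study's text calls its controls unoperated. The control rats carry numbers of a separate series, so series and injury cannot be told apart in comparisons with control. The muscles of one rat are not independent, and RNA of a whole TA holds both the defect and the muscle left around it.

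In all 13 libraries had fewer than 7000 symbols above 1 TPM (901 to 5712, against 7866 to 10948 in the others) and were dropped. Ribosomal RNA made up 71.3% to 83.8% of their TPM, except in the contralateral library of rat TS5.012 (0.043%). A high share lowers the TPM of other genes, since the total is fixed. Of the kept libraries, those of injured muscle of rats TS5.011 (16.4%) and TS5.002 (15.2% and 14.6%) held the most. A further 9 samples had labels that gave no single group. The 116 libraries left came from 114 muscles of 78 rats in 31 groups. Since TPM gives every library one total, the depth of the libraries cannot be read from the values. The 6 muscle fibre markers measured summed to between 145000 and 184000 TPM in control muscle and to between 30000 and 39300 TPM in non-repaired muscle at 3 days. Because these are bulk samples, fewer cells of a type and less RNA per cell cannot be told apart.

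TGF-β is secreted in a latent form, in which the mature dimer is held by its own propeptide. In most cells that complex is bound to a latent TGF-β binding protein, which anchors it to fibrillin and fibronectin fibres until integrins, proteases or thrombospondin release it. The freed ligand brings the type II receptor, a serine/threonine kinase, together with the type I receptor, which phosphorylates Smad2 and Smad3. In injured muscle the pathway is known for driving fibroblasts to make matrix and for restraining the fusion of myoblasts. Ltbp2 differs from its relatives in that it does not carry latent TGF-β, and Tgfbi is a secreted adhesion protein named for its induction by the ligand.

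The promoter sequences of Tgfb1 and Tgfbi are shown because these 2 had the largest differences in log2(TPM + 1) of the 10 genes against control at 3 days, and those of Ltbp1 and Ltbp4 because their highest means in non-repaired injured muscle fell on the first and the last day. Each is the 150 bases before the start of the gene, 5′ to 3′ on the gene's strand, from RefSeq on the rat build GRCr8, whereas the study mapped its reads to build 6.0. They lie at chr1:90324162-90324311 (plus strand), chr17:7990114-7990263 (minus), chr6:26177302-26177451 (minus) and chr1:91759808-91759957 (minus). Capitals mark matches on either strand to a cAMP response element (TGACGTCA), to the GC-rich Smad site (GGCGCC) or to the Sp1 box (GGGCGG).
Tgfb1: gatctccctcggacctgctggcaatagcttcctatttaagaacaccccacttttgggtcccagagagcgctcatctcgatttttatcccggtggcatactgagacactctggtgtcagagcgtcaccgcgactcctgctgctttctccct
Tgfbi: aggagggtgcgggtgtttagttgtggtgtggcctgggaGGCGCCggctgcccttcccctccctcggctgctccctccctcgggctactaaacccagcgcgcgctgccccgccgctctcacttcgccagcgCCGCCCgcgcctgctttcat
Ltbp1: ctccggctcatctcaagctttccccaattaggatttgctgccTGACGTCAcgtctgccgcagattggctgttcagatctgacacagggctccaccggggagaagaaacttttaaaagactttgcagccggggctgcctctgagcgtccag
Ltbp4: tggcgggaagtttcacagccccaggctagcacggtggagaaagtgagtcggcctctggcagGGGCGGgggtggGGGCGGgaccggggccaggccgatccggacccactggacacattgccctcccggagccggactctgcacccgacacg
Motifs were searched on both strands of the 250 bases before the start. Of the 10 genes, Ltbp1 held TGACGTCA, which 1.7% of 27457 rat promoters hold. The Smad site GGCGCC was in 2 (Tgfbi and Tgfbr1) against 9.24% of all promoters, and GGGCGG, whose matches can share bases with it, was in 6 against 32.4%. The short Smad motif GTCT was in 7, against 83.9%. The AP-1 motif TGANTCA, the Smad palindrome GTCTAGAC and the TATA motif TATAAA were in 0 of the 10, and in 6.36%, 0.186% and 13.1% of all promoters. The GC content of 9 of the 10 windows was above 52%, the median of all windows. A match is a description of these letters and not a bound site.

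Against control muscle, 8, 10, 8 and 7 of the 10 genes were called higher in non-repaired injured muscle at 3, 7, 14 and 28 days. The background is high, since 48.3%, 45.6%, 25% and 21.1% of the 11328 tested genes were also called higher. A gene was called when its Benjamini-Hochberg adjusted p over all tested genes was under 0.05 and its difference in log2(TPM + 1) was beyond 1, in one limma model of all 114 muscles. The median difference of the 10 genes was 2.35, 2.12, 1.64 and 1.66, beside 0.96, 0.91, 0.53 and 0.52 over all tested genes. None of the 10 was called lower. Every injured muscle was above every control muscle for 10, 10, 10 and 9 of them, as it was for 69.9%, 66%, 58.9% and 60.2% of all tested genes. All 4 of these comparisons share the 4 control muscles.

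The contralateral muscles came from rats of the same series as the injured ones. Against them 6, 10, 9 and 6 of the 10 genes were called higher, with 32.3%, 45.3%, 20.9% and 13.1% of all tested genes. The median difference of the 10 genes was 1.4, 2.16, 1.53 and 1.25, beside 0.54, 0.91, 0.50 and 0.38 over all tested genes. The injured muscles were all above the contralateral ones for 8, 10, 10 and 10 of the 10 genes, beside 59.7%, 67%, 73.1% and 67.4% of all tested genes.

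The median gene of the whole table was also higher in injured muscle. The median-of-ratios size factor of a muscle, the scaling commonly used for counts, ran from 0.379 to 0.707 in control, from 0.445 to 0.942 in contralateral and from 0.856 to 1.55 in injured muscle. Dividing TPM by these factors took the all-gene medians against control to 0.09, 0.08, 0.02 and 0.04. The share of called genes that were higher then fell from 91.9%, 95%, 97.9% and 99.0% to 59.2%, 60.6%, 72.8% and 78.4%. Against contralateral muscle that share went from 84.5%, 95.8%, 99.2% and 98.4% to 60.5%, 59.3%, 73.5% and 82.7%. On this scale 6, 6, 6 and 5 of the 10 genes were called higher against control, with 24.5%, 21.9%, 15.8% and 11.5% of all genes, and 4, 6, 5 and 3 against contralateral muscle, with 20.7%, 18.7%, 10.5% and 7.22%. Tgfb1 and Tgfbi were called on every day on both scales and against both references. Values on the second scale are given below as size-factor values. Injured and contralateral levels below are of rats without repair or running unless another group is named.

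**Figure D1:**
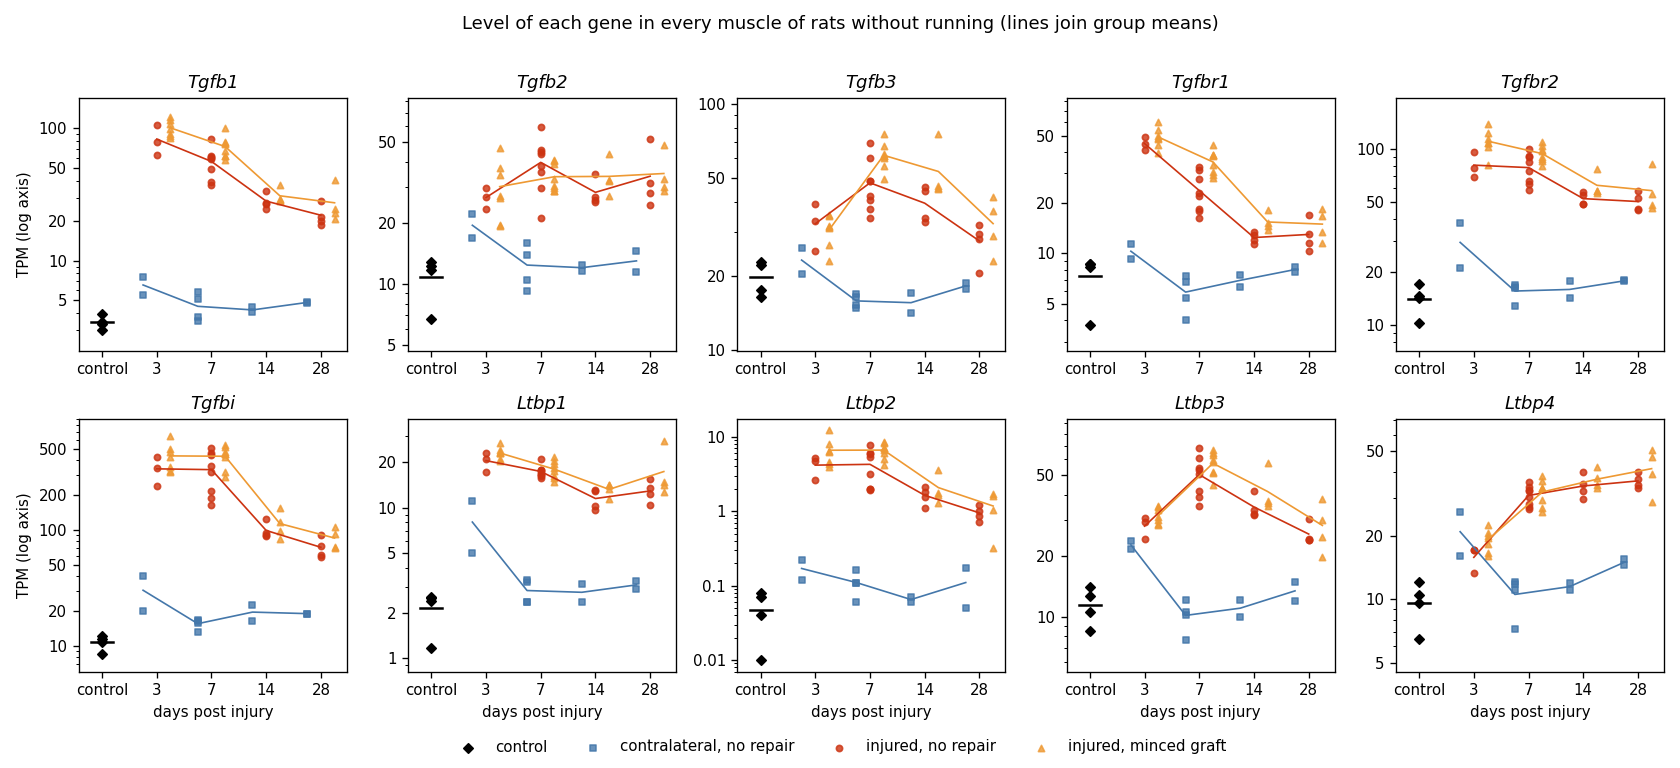
Level of each of the 10 genes in TPM (log axis) in every muscle of rats without running, by days post injury: control (diamonds), contralateral without repair (squares), injured without repair (circles) and injured with a minced graft (triangles), with lines joining group means. The means of Tgfb1 and Tgfbi were highest at 3 and 7 days and lower at 14 and 28 days, and Ltbp4 was near its contralateral level at 3 days and above it later. The control muscle in which Ltbp2 was listed at 0 is drawn at the lowest tick.

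Tgfb1, the ligand made in quantity by macrophages and platelets, had the widest range of the 3 ligands. Its level was 2.97, 3.34, 3.44 and 3.92 TPM in the 4 control muscles and 63.31, 79.25 and 106.46 TPM in the 3 injured muscles at 3 days. At 7 days the 8 injured muscles ran from 37.5 to 83.2 TPM with a median of 59.0. At 14 days they stood at 24.7, 26.9, 27.2 and 33.85 TPM, and at 28 days at 18.7, 19.95, 21.4 and 28.2 TPM. No injured muscle overlapped a control or contralateral muscle on any day, the contralateral muscles of these rats lying between 3.47 and 7.58 TPM. The injured mean was 24.3, 16.5, 8.25 and 6.43 times the control mean. The log2 difference was 4.22 ± 0.21 (SE), 3.66 ± 0.17, 2.72 ± 0.19 and 2.37 ± 0.19, with adjusted p of 1.2e-32, 6e-35, 3.9e-22 and 1.3e-18. Size-factor values were 3.22, 2.71, 2.16 and 1.83.

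Tgfb2, which is also made by muscle and mesenchymal cells, had smaller differences, and none of its steps between neighbouring days was called. Control muscles held 6.70, 11.7, 12.2 and 12.8 TPM, and injured muscles 23.4, 27.02 and 29.68 TPM at 3 days. The 8 injured muscles at 7 days ran from 21.1 to 59.2 TPM with a median of 41.1. Later values were 25.4, 25.9, 26.9 and 35.0 TPM at 14 days and 24.55, 28.3, 31.4 and 51.9 TPM at 28 days. No injured muscle overlapped a control muscle. Against control the log2 difference was 1.25 ± 0.28, 1.76 ± 0.23, 1.33 ± 0.26 and 1.54 ± 0.26, and the gene was called on all 4 days. With size factors none of these was called, at 0.18, 0.74, 0.69 and 0.92. Against contralateral muscle (16.9 and 22.1 TPM at 3 days) it was not called at 3 days (0.44, 95% interval -0.23 to 1.11; size-factor value -0.11) and was called at 7, 14 and 28 days (1.58, 1.16 and 1.27). With size factors these 3 calls were lost as well (0.54, 0.54 and 0.83), and with the dropped libraries kept those at 14 and 28 days were lost (adjusted p = 0.1 each).

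Tgfb3, the ligand with the highest level in control muscle, was called against control on 1 day. Control muscles held 16.3, 17.4, 22.2 and 22.8 TPM, and injured muscles 25.1, 33.25 and 39.2 TPM at 3 days. At 7 days the range was 34.3 to 69.6 TPM with a median of 45.5. At 14 days the values were 33.0, 34.45, 44.2 and 46.1 TPM, and at 28 days 20.6, 28.2, 29.6 and 32.3 TPM. By 28 days 1 injured muscle lay within the control range. That day was 7 days (1.21 ± 0.16, adjusted p = 5.8e-11), and with the dropped libraries kept it was at 0.86 and not called. The other differences were 0.69, 0.97 and 0.47 at 3, 14 and 28 days, and with size factors the sign turned at 3 days (-0.42, adjusted p = 0.036) and at 28 days (-0.19, adjusted p = 0.34) while 7 days gave 0.16. Leaving out either control muscle of rat TS4.037 moved the difference at 14 days to 1.04 or 1.03, and leaving out the injured muscle of rat TS5.129 or TS5.133 moved it to 1.02 or 1.04, so that it was called. Against contralateral muscle Tgfb3 was called at 7 and 14 days (1.5 and 1.28) and not at 3 or 28 days (0.46 and 0.56). With size factors neither call stayed (0.45 and 0.65), nor with the dropped libraries kept (0.87 at 7 days, adjusted p = 0.063 at 14 days).

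The makeup of the ligand pool differed between groups, and a share within a muscle does not depend on the scaling. In control muscle Tgfb1 made up 10.1% ± 0.858 (SD, n = 4) of the summed ligand TPM, Tgfb2 31.7% ± 5.71 and Tgfb3 58.1% ± 5.44. In contralateral muscle of rats without repair Tgfb1 held between 13.3% and 14.0% on average at each day. In injured muscle without repair it held 57.9% ± 6.43 (n = 3) at 3 days, 38.8% ± 7.36 (n = 8) at 7 days, 29.5% ± 2.85 (n = 4) at 14 days and 26.4% ± 4.47 (n = 4) at 28 days. Tgfb3 went from 22.9% at 3 days to 33.0%, 40.9% and 33.5%, and Tgfb2 from 19.3% to 28.3%, 29.6% and 40.1%. The summed ligand level was 34.0 TPM in control and 142.2, 143.8, 96 and 83.7 TPM in injured muscle. Tgfb1 was the most abundant ligand in injured muscle at 3 days, when its lowest share (53.5%) was above the highest share of either other ligand (26.5%). At 28 days Tgfb2 (33.1% to 56.9%) was above Tgfb1 (20.5% to 30.7%) in every muscle, and Tgfb3 (22.6% to 38.1%) overlapped both.

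**Figure D2:**
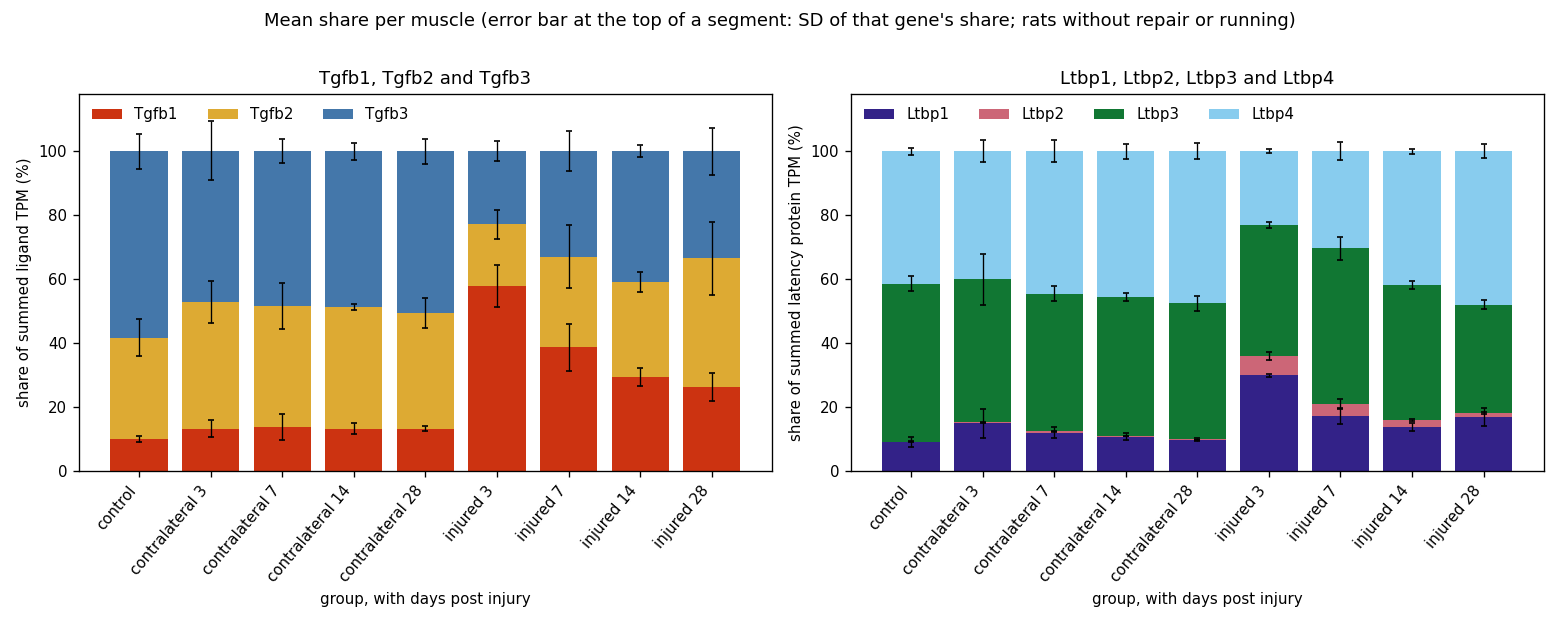
Mean share of each ligand (left) and each latent TGF-β binding protein (right) in the summed TPM of its family, in percent, for control, contralateral and injured muscle without repair or running, with the days post injury on the x axis. Error bars at the top of a segment are the SD of that gene's share over muscles. Tgfb1 made up 10.1% of the ligands in control and 57.9% in injured muscle at 3 days, and Ltbp1 went from 9.13% to 30.0% of the binding proteins.

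Both receptors rose, Tgfbr1 at 3 and 7 days and Tgfbr2 on all 4 days. Tgfbr1, the type I receptor kinase, held 3.78, 8.35, 8.64 and 8.69 TPM in control and 40.9, 44.8 and 48.8 TPM in injured muscle at 3 days. At 7 days it ran from 16.2 to 32.5 TPM with a median of 22.5, and at 14 and 28 days from 11.3 to 13.4 and from 10.4 to 16.95 TPM. All injured muscles were above all control muscles. The gene was called against control at 3 and 7 days (2.51 ± 0.19 and 1.57 ± 0.15, adjusted p = 3e-21 and 5.9e-16) but not at 14 and 28 days (0.74 and 0.77). With size factors 3 days stayed past the limit (1.45), 7 days did not (0.58), and 14 and 28 days were at 0.12 and 0.18. Against contralateral muscle it was called at 3 and 7 days (2.02 and 1.82) and not later (0.76 and 0.61), and with size factors 7 days (0.83) was no longer called.

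Tgfbr2, the type II receptor that binds the ligand first, was called for longer. Control muscles held 10.3, 14.3, 14.7 and 17.2 TPM, and injured muscles 68.85, 77.4 and 95.3 TPM at 3 days and 58.2 to 99.25 TPM (median 79) at 7 days. At 14 days the values were 48.5, 48.75, 54.5 and 56.5 TPM and at 28 days 45.1, 45.5, 52.8 and 57.15 TPM, all above the highest control value. The gene was called on all 4 days against control (2.44 ± 0.18, 2.39 ± 0.14, 1.83 ± 0.17 and 1.77 ± 0.17). Size-factor values of 1.34, 1.34, 1.18 and 1.14 also passed. Against contralateral muscle it was called on all 4 days as well (1.46, 2.23, 1.65 and 1.43), though with size factors 3 and 28 days fell to 0.90 and 0.98.

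Tgfbi reached the highest level of the 10 genes. It stood at 8.58, 10.75, 11.55 and 12.3 TPM in control muscle and at 241, 339 and 428 TPM in injured muscle at 3 days. The 8 injured muscles at 7 days ran from 165 to 508 TPM with a median of 336. At 14 days the values were 89.3, 90.05, 93.1 and 123 TPM, and at 28 days 58.4, 60.85, 72.98 and 90.88 TPM. Over all groups, graft and running included, every injured muscle (lowest 58.4 TPM) was above every control and contralateral muscle (highest 41.35 TPM). The injured mean was 31.1, 30.6, 9.16 and 6.56 times the control mean, and the log2 difference was 4.81 ± 0.30, 4.71 ± 0.24, 3.08 ± 0.28 and 2.60 ± 0.28 (adjusted p = 1.6e-26, 6e-32, 6.1e-17 and 2e-13). Against contralateral muscle it was 3.48, 4.22, 2.28 and 1.82, and with size factors 2.91, 3.16, 1.65 and 1.37.

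The latent TGF-β binding proteins are given by number, and their time courses were not tested against each other. Ltbp1, which carries latent TGF-β in most tissues, had its highest mean at 3 days, with 17.25, 21.2 and 23.2 TPM against 1.17, 2.41, 2.51 and 2.55 TPM in control. It held 15.8 to 21.2 TPM (median 17) at 7 days, 9.61 to 13.15 TPM at 14 days and 10.5 to 15.5 TPM at 28 days. It was called on every day against control on both scales (2.79, 2.57, 2.0 and 2.16; size-factor values 1.88, 1.72, 1.53 and 1.7). Against contralateral muscle the difference was 1.33, 2.27, 1.74 and 1.76, all called. The value at 3 days rests on 2 contralateral muscles at 5.04 and 11.05 TPM: without rat TS5.017 it was 0.83, and with size factors 0.80, neither past the limit.

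Ltbp2, a fibrillin-bound matrix protein, was near absent without injury. Control muscles held 0, 0.04, 0.07 and 0.08 TPM and contralateral muscles without repair 0.05 to 0.22 TPM. Injured muscles held 2.59, 4.67 and 5.22 TPM at 3 days, 1.93 to 7.71 TPM (median 4.25) at 7 days, 1.09 to 2.09 TPM at 14 days and 0.72 to 1.21 TPM at 28 days, with no overlap. Its group mean was above 1 TPM in 15 of the 31 groups and not in control, so that it entered the test through injured groups. The log2 difference against control was 2.26 ± 0.29, 2.20 ± 0.23, 1.32 ± 0.27 and 0.89 ± 0.27, called up to 14 days on both scales. A pseudocount of 1 compresses a gene at this level, and with 0.1 the difference at 28 days was 2.85 and was called.

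Ltbp3 and Ltbp4 together made up most of the binding protein transcripts of control muscle. Ltbp3 held 8.52, 10.6, 12.6 and 14.0 TPM in control and 24.1, 29.2 and 30.6 TPM in injured muscle at 3 days, 35.25 to 67.9 TPM (median 51.8) at 7 days, 31.7 to 41.6 TPM at 14 days and 23.9 to 30.3 TPM at 28 days. It was called on all 4 days against control (1.24, 2.04, 1.54 and 1.11) and, with size factors, at 7 days alone (0.15, 1.00, 0.89 and 0.48). Without the right control muscle of rat TS4.038 the difference at 28 days was 0.99. At 28 days against contralateral muscle it was at 0.88, and at 1.03 and called without the contralateral muscle of rat TS5.073. Ltbp3 at 3 days was close to contralateral muscle, which held 21.5 and 23.7 TPM (0.29, 95% interval -0.14 to 0.72; size-factor value -0.26). At 7 and 14 days it was called against contralateral muscle (2.19 and 1.57), and with size factors at 7 days (1.16) but not at 14 days (0.96).

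Ltbp4, named among the modifiers of muscular dystrophy, was the one of the 10 genes with its highest mean on the last day, at 3.75 times control. Control muscles held 6.52, 9.58, 10.51 and 12.04 TPM. Injured muscles held 13.3, 17.04 and 17.07 TPM at 3 days, 26.7 to 35.9 TPM (median 31.4) at 7 days, 29.9 to 40.0 TPM at 14 days and 33.6 to 40.0 TPM at 28 days. Against control it was not called at 3 days (0.68; size-factor value -0.39 with adjusted p = 0.0041, the opposite direction) and was called at 7, 14 and 28 days (1.60, 1.75 and 1.83; size-factor values 0.59, 1.11 and 1.21, of which 7 days did not pass). Against contralateral muscle at 3 days (16 and 25.7 TPM) the difference was -0.35 (adjusted p = 0.10), and with size factors -0.89 (adjusted p = 2.2e-07), within the limit of a call on both scales. At 7, 14 and 28 days it was called against contralateral muscle (1.48, 1.49 and 1.22), and with size factors none of these calls stayed (0.45, 0.87 and 0.77).

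Within the binding protein pool Ltbp3 made up 49.3% ± 2.31 (SD, n = 4), Ltbp4 41.4% ± 1.07, Ltbp1 9.13% ± 1.48 and Ltbp2 0.199% ± 0.134 in control muscle. At 3 days Ltbp1 held 30.0% ± 0.574 (n = 3) and Ltbp4 23.1% ± 0.599. At 28 days Ltbp4 held 47.9% ± 2.19 (n = 4), Ltbp3 33.7% ± 1.38, Ltbp1 17.1% ± 2.80 and Ltbp2 1.26% ± 0.291. In every injured muscle without repair or running Ltbp1 held a higher share (lowest 12.7%) than in any control muscle (7.20% to 10.7%). In the contralateral muscles at 3 days it held 11.8% and 18.2%.

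**Figure D3:**
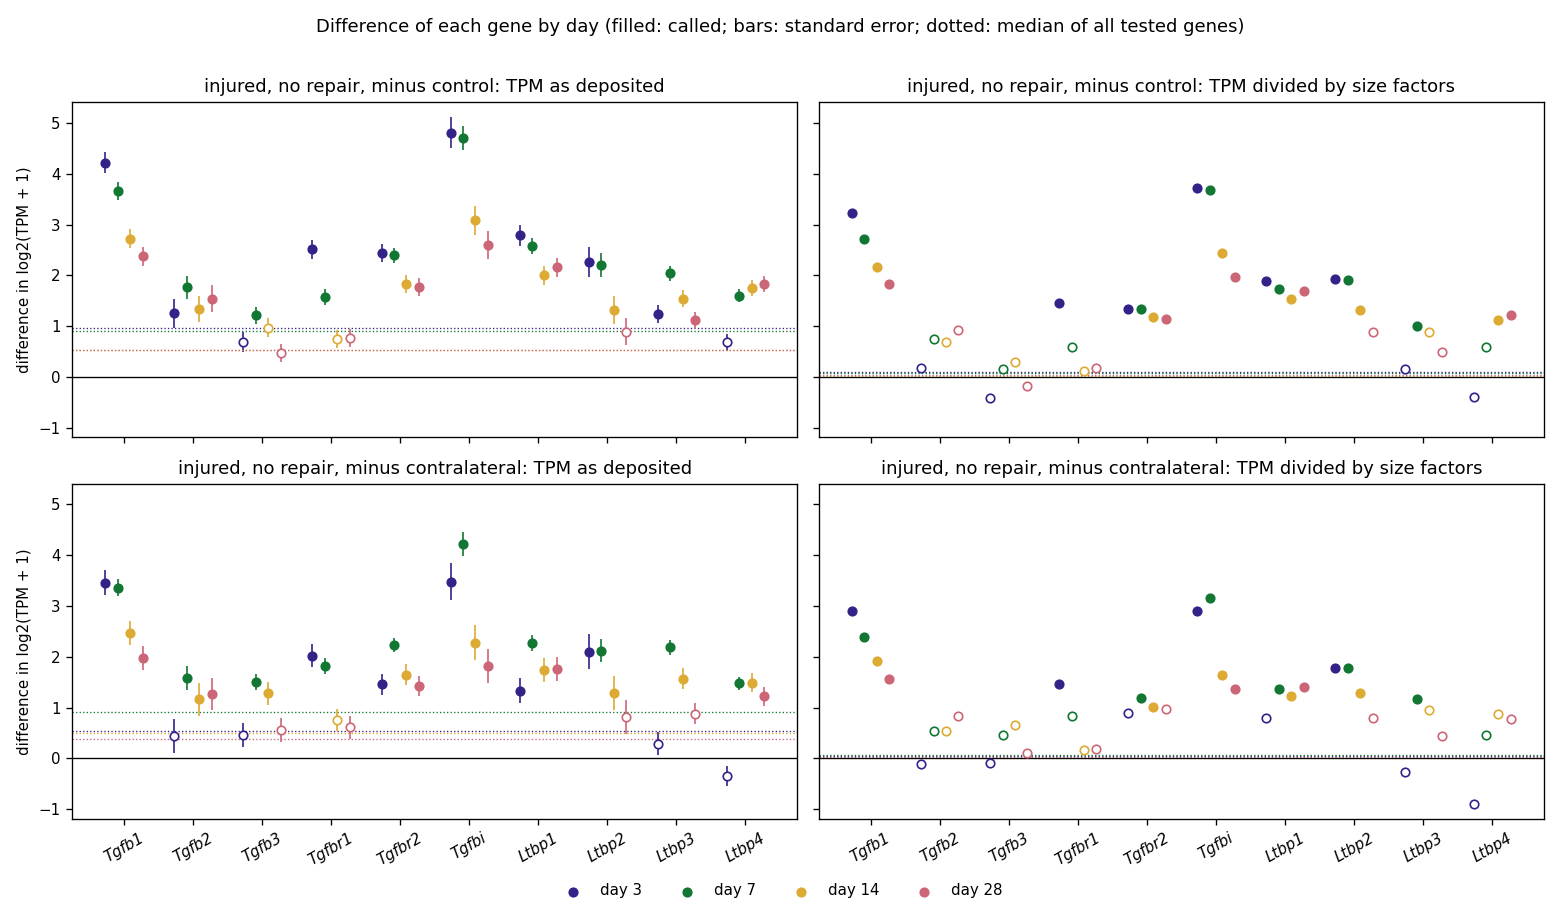
Difference in log2(TPM + 1) of each gene between non-repaired injured muscle and control (top) or contralateral muscle (bottom), by day, from TPM as deposited (left, with SE bars) and from TPM divided by size factors (right, shown without error bars). Filled points were called, and dotted lines give the median of all tested genes for that day, up to 0.96 on the left and 0.09 on the right. Tgfb1 and Tgfbi were filled in every panel on every day.

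In 34 rats both legs gave a muscle that was kept, with or without a graft or running (8, 14, 8 and 4 rats at 3, 7, 14 and 28 days). The injured leg was higher than the opposite leg of the same rat in 34 of 34 rats for Tgfb1, Tgfbi, Tgfbr1, Tgfbr2, Ltbp1, Ltbp2 and Ltbp3, as it was for 49.2% of all tested genes. It was higher in 33 rats for Tgfb3, in 31 for Tgfb2 and in 30 for Ltbp4. The exceptions were all at 3 days, where 7, 5 and 4 of 8 rats were higher. The median within-rat difference in log2(TPM + 1) of Tgfb1 was 3.83, 3.46, 2.52 and 2.05 at the 4 days, and that of Ltbp4 was -0.05, 1.19, 1.42 and 1.20. With size factors 5 of the 10 genes, Tgfb1, Tgfbi, Tgfbr2, Ltbp1 and Ltbp2, were higher in 34 of 34 rats, as were 23.9% of all genes, and Tgfbr1, Ltbp3, Tgfb3, Tgfb2 and Ltbp4 in 32, 27, 26, 25 and 25. These values describe pairs and were given no test of their own.

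The contralateral muscle itself stood above control at 3 days. Against control 3 of the 10 genes were called higher there, Tgfbi (1.33), Ltbp1 (1.46) and Ltbp4 (1.03), with 6.37% of all tested genes. With size factors 1, Ltbp1, stayed called (1.09), with 2.37% of all genes. The comparison rests on 2 contralateral muscles, which held 20.1 and 40.2 TPM of Tgfbi, 5.04 and 11.05 TPM of Ltbp1 and 16 and 25.7 TPM of Ltbp4, above every control muscle. Without the contralateral muscle of rat TS5.010 the differences were 0.85, 0.96 and 0.70 and none was called. Without that of rat TS5.017, or without the left control muscle of rat TS4.038, 5 genes were called (Tgfbr2 and Ltbp3 in addition), without the left control muscle of rat TS4.037 Tgfbr2 was called as well (1.07), and without the right control muscle of rat TS4.038 the difference of Ltbp4 was 0.87. Contralateral muscles of grafted rats at 3 days, which belonged to neither group compared here, held 26.7 and 33.9 TPM of Tgfbi, 7.6 and 7.71 TPM of Ltbp1 and 19.35 and 24.99 TPM of Ltbp4. Summed leukocyte markers were 63.9 and 178 TPM in the 2 muscles of non-repaired rats and 13.7 to 33.1 TPM in control, and summed fibroblast markers 183 and 443 TPM against 29 to 71.3 TPM. Their part in the result was not tested. At 7, 14 and 28 days 0 of the 10 genes were called by limma, with 0.636%, 0.653% and 0.185% of all genes. At an unadjusted p under 0.05 the counts were 0, 1 and 2, beside 19.8%, 14.7% and 11.6% of all genes.

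Neighbouring days of injured muscle without repair were compared next. From 3 to 7 days 0 of 10 were called in either direction, while 2% of all genes were called higher and 5.35% lower. An unadjusted p under 0.05 was reached by 6 of the 10 and by 47.3% of all genes. The largest steps were Tgfbr1 (-0.94 ± 0.17), Ltbp4 (0.93 ± 0.15) and Ltbp3 (0.80 ± 0.16), and for these 3 genes the muscles of the 2 days did not overlap, as for 20.3% of all genes. Without the injured muscle of rat TS5.020 Tgfbr1 was at -1.01 and was called lower. From 7 to 14 days 1 gene was called lower, Tgfbi (-1.63 ± 0.24, adjusted p = 3.2e-08; size-factor value -1.24), as were 6.1% of all genes. Tgfb1 fell short of the limit at -0.94, and without the injured muscle of rat TS5.125, TS5.126 or TS5.137 it was -1.02, -1.01 or -1.03 and was called. From 14 to 28 days 0 genes were called, with 0.459% of all genes. At an unadjusted p under 0.05 there were 2, beside 13.8% of all genes. The 2 were Tgfb3 (-0.50 ± 0.18, adjusted p = 0.17) and Ltbp3 (-0.43 ± 0.17, adjusted p = 0.21), whose muscles of 14 and 28 days did not overlap, as for 15.6% of all genes. Over the whole course the order of means was 3, 7, 14, 28 days for Tgfb1 and Tgfbi, and 28, 14, 7, 3 days for Ltbp4.

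Whether the injury effect itself changed between days was tested as the difference of 2 injured-minus-contralateral differences, a comparison chosen after the values had been seen. In rats without repair the effect at 7 days was larger than at 3 days for Ltbp3 (by 1.90 ± 0.26), Ltbp4 (1.84 ± 0.24), Tgfb2 (1.14 ± 0.40) and Tgfb3 (1.04 ± 0.29), when 8.87% of all genes were called higher. For Ltbp1 it was also larger, by 0.95 ± 0.30 (adjusted p = 0.0084), below the limit of a call, and with size factors by 0.57 (adjusted p = 0.06). For Tgfbr2 it was larger by 0.77 ± 0.26 (adjusted p = 0.013), also below the limit, and with size factors by 0.28 (adjusted p = 0.28). In grafted rats it was larger for Ltbp3 (1.77 ± 0.23), Ltbp4 (1.45 ± 0.21) and Tgfb3 (1.21 ± 0.25), beside 4.88%. With size factors Ltbp3 and Ltbp4 stayed called in both arms (1.42 and 1.35 without repair, 1.54 and 1.21 with a graft), beside 2.47% and 2.78%. From 7 to 14 days the effect became smaller for Tgfbi (-1.94 ± 0.42) and Tgfbr1 (-1.06 ± 0.27) without repair, beside 7.64% of all genes, and for Tgfbi (-2.08 ± 0.40), Ltbp2 (-1.32 ± 0.39) and Tgfb1 (-1.16 ± 0.28) with a graft, beside 7.9%. Below the limit with an adjusted p under 0.05 were Tgfb1 (-0.89) and Ltbp3 (-0.62) without repair and Tgfbr1 (-0.98) with a graft. With size factors Tgfbi stayed called in both arms (-1.51 and -1.83) and Ltbp2 in the grafted arm (-1.0), beside 1.88% and 4.11%. From 14 to 28 days 0 of the 10 were called in either arm, and of all genes 0% and 0.0177%, or 0% and 0.0447% with size factors.

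Grafted injured muscle against its own contralateral group gave 6, 10, 9 and 7 of 10 called higher, with 37.2%, 42.9%, 25.6% and 18.8% of all genes. With size factors 5, 7, 5 and 3 were called, with 21.7%, 21.2%, 13.1% and 9.65%. Tgfb1 differed by 3.73, 3.74, 2.58 and 2.20, and Tgfbi by 3.76, 4.51, 2.43 and 1.97. Ltbp4 at 3 days again lay near its contralateral group (-0.21, 95% interval -0.55 to 0.14; size-factor value -0.88). Ltbp3 at 28 days (1.05) was not called without the injured muscle of rat TS5.076 (0.89), with size factors (0.48), with running rats pooled in and running as a covariate (0.92) or with the dropped libraries kept (adjusted p = 0.086). Tgfb2 at 28 days (1.33) was not called with size factors (0.77) or with those libraries kept (adjusted p = 0.059). Calls were gained for Ltbp2 at 28 days without that of rat TS5.075 (1.20 in place of 0.98), and for Tgfbr1 at 14 days (0.99) without the injured muscle of rat TS5.131 or TS5.139 or the contralateral one of rat TS5.135 (1.01, 1.04 and 1.03).

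Directly compared with non-repaired injured muscle, 0 of the 10 genes were called in grafted muscle on any day by limma, and 0.00883%, 0.0883%, 0.0265% and 0% of all tested genes were called at 3, 7, 14 and 28 days. At an unadjusted p under 0.05 the counts were 1, 6, 1 and 0 of 10, beside 17.3%, 27%, 5.23% and 1.24% of all genes. The differences ran from -0.19 to 0.63, and in 38 of 40 gene and day combinations the 95% interval lay within 1 of 0. The 2 exceptions were Ltbp2 at 3 days (0.52, upper bound 1.04) and at 7 days (0.63, upper bound 1.02). At 7 days 3 genes had an adjusted p under 0.05 with a difference below the limit, Tgfbr1 (0.57 ± 0.13, adjusted p = 0.003), Ltbp2 (0.63 ± 0.19, adjusted p = 0.028) and Tgfb3 (0.39 ± 0.13, adjusted p = 0.045). The share of all genes at this threshold is not given, so the count does not set these genes apart from the rest. Mean Tgfbr1 was 34.8 TPM with a graft and 23.6 TPM without, from 28.0 to 43.8 and from 16.2 to 32.5 TPM in 8 muscles each, so the groups overlapped. With size factors Tgfbr1 alone kept an adjusted p under 0.05 (0.45, adjusted p = 0.0036). The injury effects of the 2 arms, tested as an interaction, differed for 0 of the 10 genes on any day, beside 0% of all genes on each day, and 0, 1, 0 and 0 had an unadjusted p under 0.05, beside 2.09%, 11.5%, 0.883% and 0.556%. Their intervals lay within 1 of 0 in 30 of 40 combinations, so the interaction was measured less closely than the direct difference.

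The rats at 7 days carried numbers in 2 ranges, and the graft difference is given within each. This split, and the comparisons by range that follow, were made after the values were seen. Among rats from TS5.105 upward, Ltbp2 was called (1.01 ± 0.24, adjusted p = 0.003, beside 1.04% of all genes), Tgfbr1 was at 0.93 (adjusted p = 0.00016), Tgfbi at 0.79, Tgfb1 at 0.63 and Tgfb3 at 0.61. Among rats up to TS5.032 the same genes were at 0.26, 0.21, 0.13, 0.14 and 0.18, none with an adjusted p under 0.05. None was called, beside 0.0177% of all genes called higher. Ltbp2 in non-repaired muscle was 5.32 to 7.71 TPM in the 4 rats of the low range and 1.93 to 3.18 TPM in the 4 of the high range. With a graft the low range held 6.74 to 8.58 TPM and the high range 4.16 to 7.11 TPM. The difference between the ranges was not tested. The injured against contralateral difference at 7 days within the high range was called for all 10 genes, from 1.33 (Tgfb3) to 3.71 (Tgfbi), beside 42.1% of all genes called higher.

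Days are also mixed with these ranges, since non-repaired rats without running had low numbers at 3 days, numbers of both ranges at 7 days and high numbers at 14 days. At 28 days their numbers lay between the ranges, so day and number cannot be told apart from 14 to 28 days. Within the low range, from 3 to 7 days without repair, Ltbp3 was called higher (1.03 ± 0.18, adjusted p = 4.5e-06, beside 2.57% of all genes), Ltbp4 was at 0.99 and Tgfbr1 at -0.65. Within the high range, from 7 to 14 days, Tgfbi was called lower (-1.12 ± 0.25, adjusted p = 0.00023, beside 2.35% of all genes) and Tgfb1 was at -0.68. The change of the injury effect from 3 to 7 days within the low range could be had in grafted rats, where Ltbp3 (1.72), Ltbp4 (1.37) and Tgfb3 (1.36) were called, beside 3.59% of all genes. Without repair the contralateral muscles at 7 days all came from the high range and those at 3 days from the low range, so that day and range cannot be told apart there. From 7 to 14 days within the high range the effect became smaller without repair for Tgfbi (-1.43), beside 2.27% of all genes, while Tgfbr1 (-0.78) was no longer called. With a graft it became smaller for Tgfbi (-1.76), Tgfb1 (-1.14), Ltbp2 (-1.11) and Tgfbr1 (-1.06), beside 6.38%.

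Running was compared within each arm. Against rats without running, 0 were called in non-repaired injured muscle on any day by limma, beside 0.0441%, 0%, 0.0177% and 0.0177% of all genes. An unadjusted p under 0.05 was found for 0, 4, 0 and 0 of the 10, beside 14.5%, 21.3%, 9.96% and 3.79% of all genes. In grafted muscle 0 were called, beside 0% on all 4 days, and 2, 0, 0 and 2 had an unadjusted p under 0.05, beside 5.24%, 1.83%, 0.627% and 8.4%. Differences ran from -0.48 to 0.55 without repair and from -0.64 to 0.25 with a graft, and the intervals lay within 1 of 0 in 37 and 38 of 40 combinations. The exceptions were Ltbp2 and Tgfbi at 7 days and Tgfb2 at 28 days without repair, and Ltbp1 and Tgfb2 at 28 days with a graft, where each running group held 2 muscles. Tgfb1 at 7 days without repair had the smallest adjusted p (0.16, difference 0.43, 95% interval 0.10 to 0.76). The running rats at 7 days all had numbers in the low range, while those without running came from both. Within the low range Tgfb1 was at 0.17, Ltbp2 at -0.03, Tgfbi at 0.03 and Tgfb2 at -0.22 without repair, each with an adjusted p of 1. None of the 10 was called in that range in either arm, beside 0% of all genes without repair and 0.00883% with a graft.

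**Figure D4:**
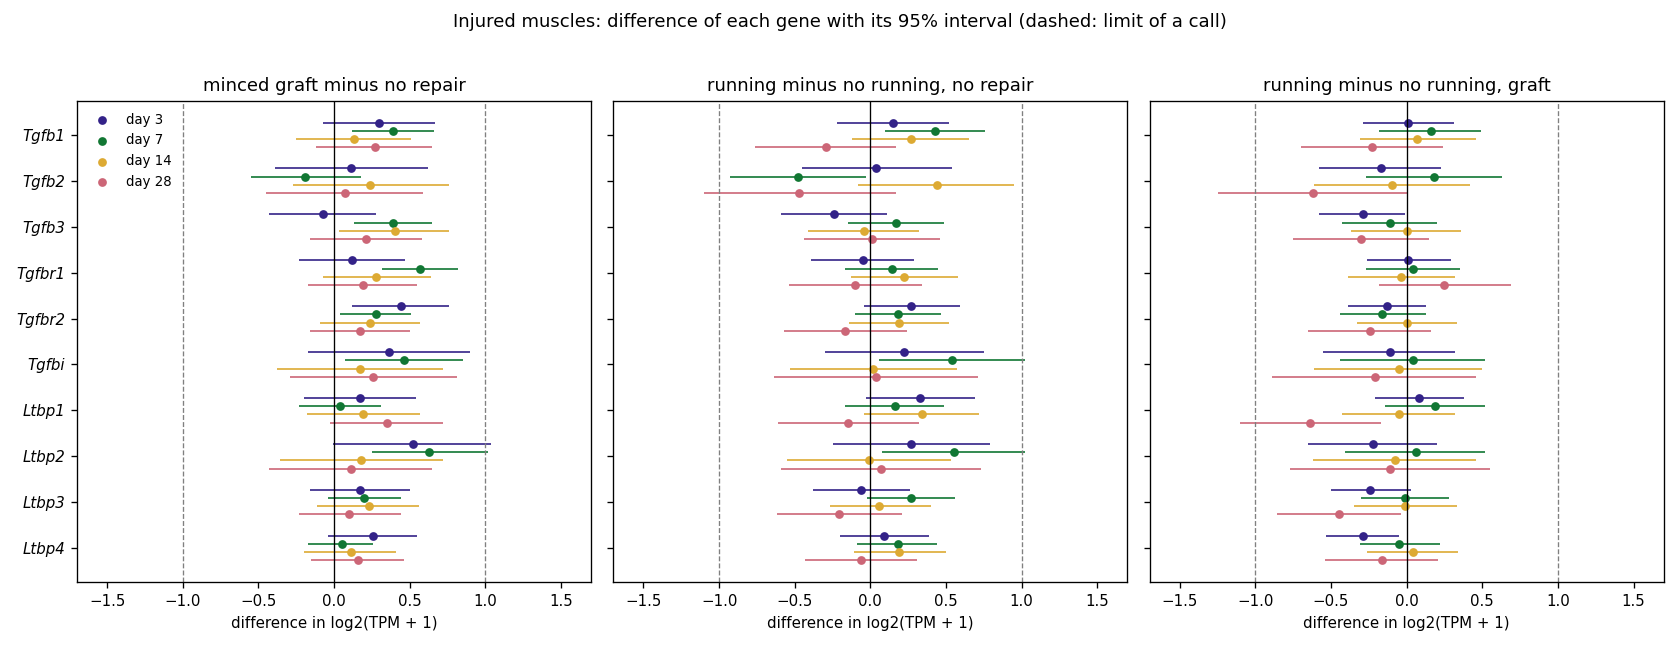
Difference in log2(TPM + 1) with its 95% interval for each gene and day in injured muscle: minced graft minus no repair (left), running minus no running without repair (middle) and with a graft (right). Dashed lines at 1 and -1 mark the limit of a call. All 40 differences in each panel lie between the dashed lines, from -0.19 to 0.63 in the left panel, -0.48 to 0.55 in the middle and -0.64 to 0.25 on the right.

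Other genes of the pathway were counted by list, against contralateral muscle at 3, 7, 14 and 28 days. The counts stand beside 32.3%, 45.3%, 20.9% and 13.1% of all tested genes called higher on these days, or 20.7%, 18.7%, 10.5% and 7.22% with size factors. All 9 of the 9 target genes reported here were called higher on every day, with a median of 2.82, 4.65, 3.39 and 2.49, and 9, 9, 9 and 6 with size factors. They include Col1a1 and Col3a1, the fibrillar collagens (5.39 and 5.29 at 7 days), Postn, a matricellular protein (6.95), and Acta2, the smooth muscle actin of myofibroblasts (2.46). Of the 7 matrix anchors of the latent complex 7, 7, 7 and 5 were called higher, among them Fbn1, fibrillin-1 (3.13 at 7 days), and Fn1, fibronectin (4.88). Of the 11 tested genes for release and activation 10, 10, 8 and 4 were called higher. On the last day these were Thbs1, thrombospondin-1 (2.44), Bmp1, which cleaves binding proteins (2.22), and the matrix metalloproteinases Mmp2 (2.81) and Mmp14 (3.08). The epithelial integrin subunit Itgb6 was not called on any day (0.44 at 7 days).

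Of the 3 co-receptors 1, 3, 3 and 1 were called higher, at 3 days a share near that of all genes, and with size factors 0, 0, 0 and 1. The one at 28 days was Tgfbr3, betaglycan, which presents ligand to the type II receptor (1.49), and the one at 3 days was Eng, endoglin (1.34). The 6 Smads and nuclear partners tested gave 1, 2, 1 and 1 called higher, near or below the share of all genes, with a median of 0.07, 0.44, 0.35 and 0.18, below the all-gene median on each day and negative with size factors (-0.49, -0.51, -0.22 and -0.28). Tgif1, a repressor of Smad-driven transcription, was the one called on every day (3.16, 3.18, 1.67 and 1.49), with Smad2 (1.17) beside it at 7 days. Smad7, the inhibitory Smad, had -0.38, 0.05, 0.26 and -0.23 and was not called, and with size factors its value was negative on every day (-0.83, -0.78, -0.24 and -0.63). Smad3, the receptor-activated partner of Smad2, had -0.18, -0.32, -0.08 and 0.02, and with size factors it was called lower at 7 days (-1.40), as was the inhibitory Smad6 (-1.27). Of 7 inhibitors and turnover genes 2, 6, 3 and 3 were called higher, at 3 days below the share of all genes, led by Bgn, biglycan (3.93, 5.52, 4.31 and 3.72), and Pmepa1, which binds and sequesters Smads (1.27, 2.35, 3.47 and 1.96). No gene of these lists was called between grafted and non-repaired muscle.

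**Figure D5:**
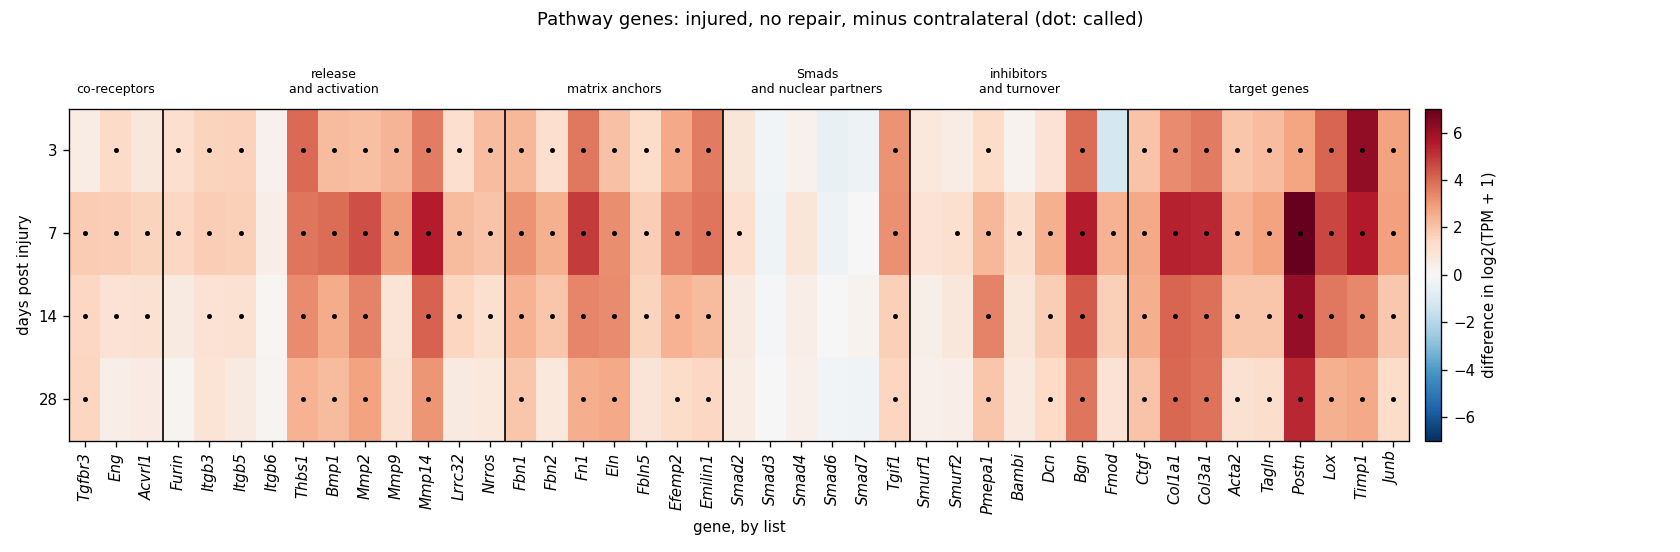
Difference in log2(TPM + 1) between non-repaired injured and contralateral muscle for the tested genes of 6 pathway lists (columns) at 3, 7, 14 and 28 days post injury (rows), red for higher and blue for lower in injured muscle, with a dot where the gene was called. All 9 target genes are dotted on every day, and of the Smads and nuclear partners Tgif1 is dotted on every day and Smad2 at 7 days.

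Markers of other cells moved over the same days. Of 6 fibre markers 6, 4, 0 and 0 were called lower than in contralateral muscle (5.92% and 2.01% of all genes were called lower at 3 and 7 days). Those called higher stand beside 32.3%, 45.3%, 20.9% and 13.1% of all genes. Of 7 leukocyte and macrophage markers 7, 7, 7 and 5 were called higher, and their summed level was 4150 to 5530 TPM at 3 days, 560 to 2720 TPM at 7 days, 362 to 438 TPM at 14 days and 208 to 737 TPM at 28 days, against 13.7 to 33.1 TPM in control. Of 5 fibroblast markers all 5 were called higher on every day, with sums of 1780 to 3340, 2380 to 7570, 1800 to 2700 and 841 to 1490 TPM against 29 to 71.3 TPM. Of 5 endothelial markers 1, 4, 2 and 1 were called higher, the 1 at 3 days below the share of all genes, and with size factors 0 on each day. Of 3 neutrophil markers 3, 1, 0 and 0 were called higher, of 3 smooth muscle markers 2, 2, 3 and 1, of 5 satellite cell and myoblast markers 3 on each day, and the 1 platelet marker tested was called on each day. All markers measured were above 0.1 TPM on average in these groups except the platelet genes Ppbp and Gp9 in some of them. Their part in the differences of the 10 genes was not tested.

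Across the 31 group means of log2(TPM + 1), which share the split between injured and uninjured muscle and the TPM scaling, the 10 genes followed different partners. Genes were ranked by Pearson's r over all tested genes. The closest to Tgfb1 were Fam129b and Msn (0.997 each) and Slc25a24 (0.996), and to Tgfbi Lima1 and Agpat4 (0.996 each) and Dusp18 (0.995). Tgfbr1 was closest to Atp6v1a and Tcirg1, subunits of the vacuolar proton pump (0.992 each), and Tgfbr2 to Slc44a1 (0.995). Ltbp2 was closest to the transcription factors Runx2 (0.996) and Tbx18 (0.995), Ltbp1 to Morc3 (0.984), Ltbp3 to Csrnp2 (0.98) and Ltbp4 to Sparcl1 (0.963). Tgfb2 was closest to Kcnq5 (0.979) and Tgfb3 to Dcx (0.969). Among the 10 genes themselves r ran from 0.389 (Tgfbr1 with Ltbp4) to 0.99 (Tgfb1 with Tgfbi), and Tgfb3 was closest to Ltbp3 (0.957). These values describe groups and carry no p.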

How the data were processed

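Total RNA from TA muscles was sequenced with paired-end TruSeq libraries. The deposited TPM values were made by the authors with Kallisto against rat build 6.0 (versions not given in the sources used here, and their notes also name DESeq), one column per library. TPM keeps no depth, so no counting interval can be given, and the number of muscles sets the precision. The last row was incomplete and left out. Libraries with fewer than 7000 symbols above 1 TPM were dropped, libraries of one muscle were averaged, and samples were grouped by title and labels. Unassigned samples entered no comparison.

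All 31 groups entered one limma-trend model (R 4.3.3, limma 3.58.1) of log2(TPM + 1), with 83 residual degrees of freedom, over the 11328 genes whose mean was above 1 TPM in at least 1 group. A fold change on this scale understates changes of low genes. The study's own thresholds were kept (adjusted p under 0.05, log2 difference beyond 1), while its tests ran on counts. The code was tested on simulated data. The named genes were the 10 members, the genes of the pathway and marker lists, and the 3 genes most like each member. One gene of the target list is not reported here. The members and lists were chosen with earlier results of these data known. Whether the 2 muscles of a rat are paired was checked: residuals of 36 such pairs had a mean correlation of 0.0722, against -0.00871 between rats. Alternatives were size factors, other pseudocounts and filters, all libraries kept, the compared groups alone, running pooled as a covariate, a rat block and leaving out 1 muscle at a time (88 refits). Injured muscles of running rats at 3 days and contralateral muscles of running rats were not left out. Figures used matplotlib 3.10.9.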

Additional observations from a re-analysis of the deposited data

Results flagged for a closer look

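Muscles that stood apart from their group by Dixon's criterion (groups of 4 to 10) were found in 15 of 160 gene and group combinations. Chance gives about 5% of independent combinations. These are not independent, since 1 muscle can stand apart in several genes, so the count does not show an excess. The right control muscle of rat TS4.038 was low in Ltbp1 (1.17 TPM) and Tgfbr1 (3.78 TPM), and had the lowest size factor of all control muscles (0.379). The grafted muscle of rat TS5.135 at 14 days was high in Tgfb1 (37.53 TPM), Tgfb3 (75.46 TPM), Tgfbr2 (76.57 TPM) and Ltbp3 (57.26 TPM). Ltbp1 was high in 1 grafted muscle at 28 days (27.92 TPM), in 1 grafted muscle of a running rat at 7 days (25.49 TPM) and in 1 non-repaired muscle at 7 days (21.21 TPM). Single high values without repair were Tgfb2 (35.03 TPM) and Tgfbi (123.08 TPM) at 14 days, Ltbp3 (30.27 TPM) at 28 days and, in a running rat, Ltbp4 (43.8 TPM) at 7 days. Single low values were Tgfb3 in a running rat without repair at 7 days (42.12 TPM) and Tgfbr2 in a contralateral muscle at 7 days (12.88 TPM).

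The injury effect (injured minus contralateral) differed between days by a test of the difference itself, limma with adjustment over all genes. This comparison was chosen after the values had been seen. From 3 to 7 days the effect grew without repair for Ltbp3 (1.90), Ltbp4 (1.84), Tgfb2 (1.14) and Tgfb3 (1.04), beside 8.87% of all genes called higher. With a graft it grew for Ltbp3 (1.77), Ltbp4 (1.45) and Tgfb3 (1.21), beside 4.88%. With size factors Ltbp3 and Ltbp4 stayed called in both arms. Tgfb2 (0.65) and Tgfb3 (0.55) without repair and Tgfb3 (0.97) with a graft did not. Without repair, day and range of rat numbers cannot be told apart in this step. From 7 to 14 days the effect shrank without repair for Tgfbi (-1.94) and Tgfbr1 (-1.06), beside 7.64% of all genes called lower. With a graft it shrank for Tgfbi (-2.08), Ltbp2 (-1.32) and Tgfb1 (-1.16), beside 7.9%. Tgfb1 without repair (-0.89) and Tgfbr1 with a graft (-0.98) fell short of the limit. With size factors Tgfbi stayed called in both arms and Ltbp2 with a graft. Within the high range of rat numbers Tgfbr1 without repair was at -0.78 and not called. The days of one arm share the 7 day groups, and the contralateral groups at 3 and 14 days held 2 muscles each.

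The 9 libraries whose labels gave no single group are set beside the highest control muscle. Of these, 8 are both legs of running rats at 28 days, whose titles and labels name opposite muscles, so the medians and ranges below mix injured and contralateral muscle. The remaining library is titled as contralateral muscle of rat TS5.011. The medians were 7.14 TPM for Tgfb1 (range 4.13 to 23.04), 31.69 TPM for Tgfbi (13.95 to 74.75), 4.75 TPM for Ltbp1 (2.60 to 14.3) and 16.59 TPM for Ltbp4 (13.5 to 43.3), and for these 4 genes 9 of 9 libraries lay above the highest control muscle. Tgfbr2 had a median of 23.59 TPM with 7 libraries above, Tgfb2 15.1 TPM with 6, Tgfbr1 8.91 TPM and Ltbp2 0.12 TPM with 5 each, and Tgfb3 18.98 TPM and Ltbp3 13.1 TPM with 4 each. No share of all tested genes is given for these libraries, so the counts do not set these genes apart from the rest.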

How the results depend on the processing

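Of 350 gene and comparison results, all kept their call and direction without the low-value filter, without the trend in limma's prior, with each library as a sample and with a replicate block for the rat (block correlation 0.026). Size factors kept the call of 310, took 37 below the limit and reversed 3 whose difference on the deposited scale had an adjusted p under 0.05: Ltbp4 at 3 days (-0.39) and Tgfb3 at 3 and 28 days (-0.42 and -0.19), all against control, of which the value at 28 days had an adjusted p of 0.34. A further 35 without an adjusted p under 0.05 on the deposited scale also differed in sign with size factors, among them Tgfb2, Tgfb3 and Ltbp3 against contralateral muscle at 3 days (-0.11, -0.10 and -0.26), and 22 with all libraries kept. With size factors the count of genes called fell at 7 days to 6 of 10 against control and 6 against contralateral muscle, beside 21.9% and 18.7% of all genes. At 14 and 28 days it fell to 5 and 3 against contralateral muscle (10.5% and 7.22% of all genes), and in grafted muscle to 5 and 3 (13.1% and 9.65%). The change of the injury effect then held 2 genes from 3 to 7 days and 1 from 7 to 14 days without repair, beside 2.47% and 1.88% of all genes. Contralateral against control at 3 days gave 3 genes (beside 6.37% of all genes), but 1 with size factors (beside 2.37%), 1 with all libraries kept, 0 in a fit of those groups alone and 5 with a pseudocount of 0.1. With all libraries kept, that comparison at 7 days gave 2 genes (lower) and 7 against 3 days in injured muscle 1. A pseudocount of 0.1 gave 2 genes from 7 to 14 days. Leaving out 1 muscle gave 0 to 5 genes for contralateral against control at 3 days, 0 to 1 from 3 to 7 days, 1 to 2 from 7 to 14 days, and within 1 of the reported count elsewhere. For alternatives other than size factors no share of all genes is given. Their counts do not show whether a move was particular to these genes. The causes of these changes were not tested, except that size factors remove the shift of the median gene by construction. The depth of each library cannot be read from TPM, and groups of 2 muscles limit the contralateral comparisons at 3, 14 and 28 days.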
